A study of Saccharomyces cerevisiae with 6 samples.

Results

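The genes described here encode chromatin remodelers and histone modifying enzymes of budding yeast. They were chosen by name, from a list of 55 subunits and enzymes covering the RSC, SWI/SNF, ISWI, CHD1, INO80, SWR1, SAGA, NuA4, Rpd3 and Hda1 complexes and the histone methyltransferases Set1, Set2 and Dot1; the rule uses no measured value. Transcripts of 25 of the 55 were listed in the deposited tables, which hold 2850 genes in all, and all 25 passed the filter on low counts. The other 30, among them the ISWI and CHD1 genes and the genes for the ATPases Snf2, Ino80 and Swr1, were not analysed here. Polyadenylated RNA was measured by sequencing in 3 cultures that carried the [ESI+] state and in 3 naive cultures. Both groups carry the strain label BY4743, a diploid used widely in yeast genetics, and every culture was taken from YPD, a rich medium with glucose, at an optical density of 0.5. No drug, mutation or other agent is labelled in either group. [ESI+] is a protein-based, heritable state of Snt1, a scaffold of the Set3 deacetylase complex. The labels give biological replicates by number only and do not say whether the ESI+ cultures came from separate isolates.

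Nucleosomes wrap most of the yeast genome, and remodelers use the energy of ATP to slide, evict or rebuild them. RSC and SWI/SNF open promoters, INO80 and SWR1 control where the histone variant H2A.Z is placed, and all of them are built from an ATPase with actin-related and scaffold subunits. Histone acetyltransferases such as SAGA and NuA4 favour transcription, while the deacetylases Rpd3 and Hda1 mostly repress it, and Dot1 methylates histone H3 in a manner that limits the spread of telomeric silencing.

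The libraries differed in depth and in the profile of their RNA. Total estimated counts, the fragments assigned to genes, were 316485 to 3896490 in the ESI+ libraries and 1080941 to 5934050 in the naive libraries. The 100 most abundant genes took 51.6%, 28.3% and 41.8% of the counts in ESI+ replicates 1, 2 and 3, against 57.0% to 61.1% in naive libraries. Across genes, Pearson's r of log2 normalised counts was 0.602 between ESI+ replicates 2 and 3, against 0.926 to 0.952 among naive libraries. ESI+ replicate 1 had r of 0.736 and 0.752 with ESI+ replicates 2 and 3, and a higher r of 0.899 to 0.909 with the naive libraries. For ESI+ replicates 2 and 3, r with the naive libraries was 0.615 to 0.683. A level of counts per kb that nearly all genes reach (the 5th percentile over genes, called the background below) was highest in ESI+ replicate 2, at 297, against 1.99 to 55.1 elsewhere. These levels are not scaled for depth. The 1.99 was in ESI+ replicate 3, the shallowest library, and the 55.1 in naive replicate 3, the deepest. The source of the background in ESI+ replicate 2 was not tested. Of 18 mating-type, haploid-specific and auxotrophy genes that should be low or absent in this strain, 6 were listed. The a-factor genes MFA1 and MFA2 had 0 to 15.02 normalised CPM (counts scaled to a common library size) in ESI+ and 0 to 1.42 in naive libraries, and the a-agglutinin gene AGA2 had 0.54 to 92.6 and 1.09 to 4.07. STE4, a haploid-specific gene, had 37.7 to 97.8 and 19.0 to 40.5. URA3, a marker deleted in this strain, stood at 333 CPM in ESI+ replicate 3 and 255 in naive replicate 3, against 17.8 to 32.3 elsewhere, and HIS3, deleted in part, at 453 in ESI+ replicate 3 against 32.6 to 66.4 in the other libraries. The URA3 values go against the strain label of ESI+ replicate 3 and naive replicate 3. AGA2, which should also be low or absent, had its 92.6 CPM in ESI+ replicate 3, from 37 counts. That is 36.7 times the background, against 0.061 to 0.815 times in the other libraries. The highest MFA1 value was in ESI+ replicate 3 too, from 6 counts (10.6 times), while MFA2 had no count there. HIS3 had 119 times the background in that library, against 2.21 to 5.49 times elsewhere. STE4, which should be low in a diploid, had 1.04 to 5.62 times the background over the 6 libraries. The source of these marker values and their part in the results were not tested.

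Together the 25 genes were a small part of each library. They took 0.158%, 0.673% and 0.248% of all estimated counts in ESI+ replicates 1, 2 and 3, against 0.128%, 0.150% and 0.155% in naive replicates 1, 2 and 3. Summed over the genes, TPM values, which are levels corrected for length and scaled to a common total, came to 872, 3940.3 and 1227 in the ESI+ libraries and 789.7, 856 and 844 in the naive libraries. ESI+ replicate 2 stood far above the other 5 libraries on both scales. Of the 25 genes, 18 had their highest normalised CPM in ESI+ replicate 2, 2 had it in ESI+ replicate 3 and 5 in naive replicate 2.

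**Figure D1:**
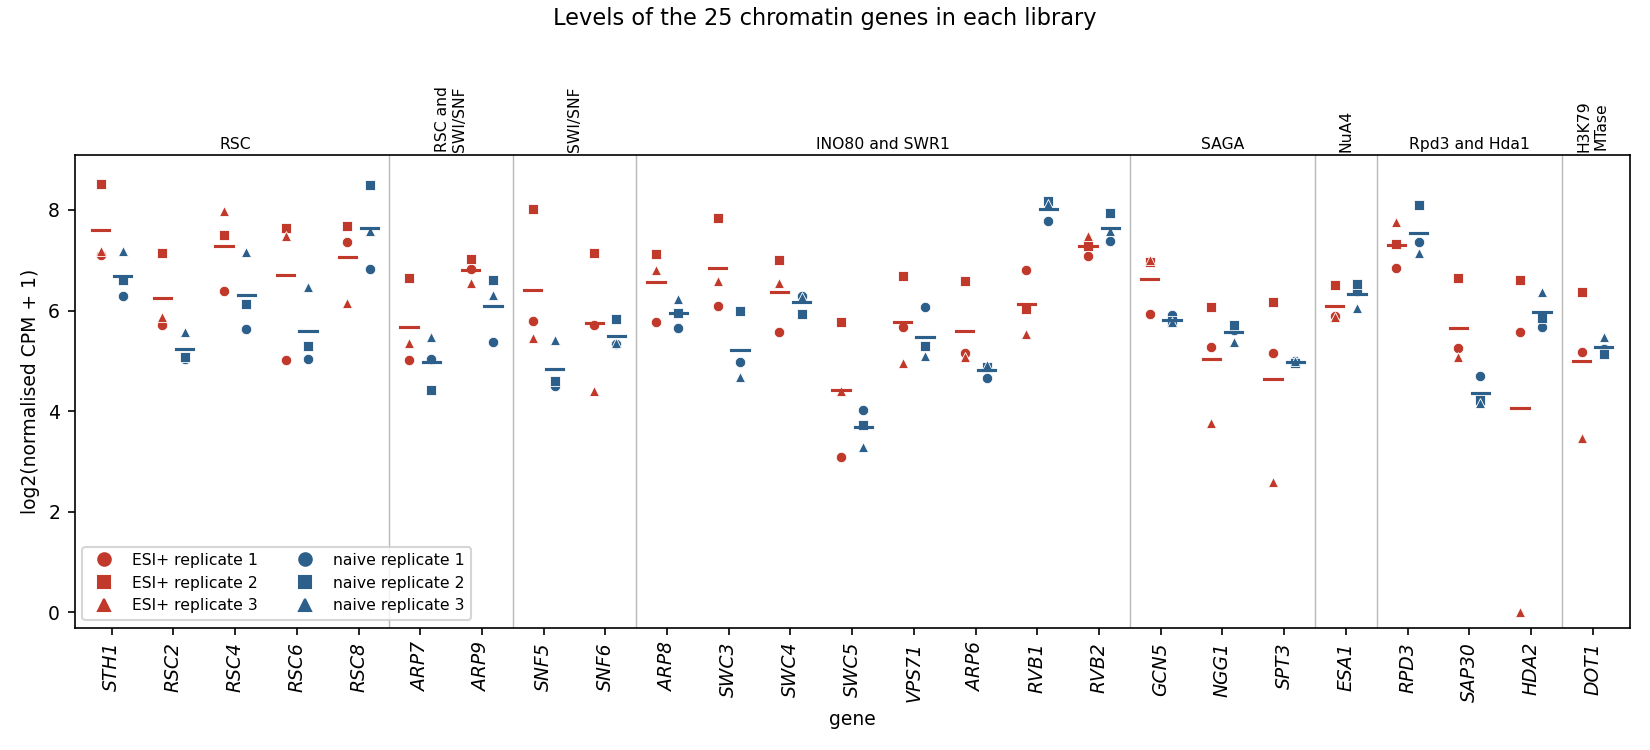
Levels of the 25 chromatin genes, as log2(normalised CPM + 1), in each ESI+ library (red, left of each pair) and each naive library (blue, right), grouped by complex; horizontal bars are group means on that scale. ESI+ replicate 2 (red squares) is the highest library for 18 of the 25 genes, RVB1 is lower in all 3 ESI+ libraries than in all 3 naive libraries, and HDA2 has no count in ESI+ replicate 3.

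Across the whole comparison of ESI+ with naive cells, 3 of the 25 genes passed. The SWI/SNF core gene SNF5 and the SWR1 subunit gene SWC3 were higher, and RVB1, which encodes an ATPase shared by INO80 and SWR1, was lower. The remaining 22 did not pass, and the genes for the enzymes with catalytic activity on nucleosomes or histones (STH1, GCN5, ESA1, RPD3 and DOT1) were all among these 22. The 2 higher genes are 8% of the 25, where 6.26% of all tested genes were higher. The 1 lower gene is 4% of them, where 1.65% of all tested genes were lower (edgeR's quasi-likelihood test, Benjamini-Hochberg adjusted p under 0.05 over 2844 genes). At an unadjusted p under 0.05, 6 were higher (24%) and 1 lower (4%), against 15.1% and 10.6% of all tested genes. DESeq2 called the same 3 genes, with 8.47% of all genes higher and 5.1% lower, and limma on log2(TPM + 1) called 0 of the 25, with 4.84% of all genes higher and 1.12% lower. Limma gave 4 of the 25 higher and 0 lower at an unadjusted p under 0.05, against 20.7% and 3.65% of all genes.

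The 25 fold changes ranged from -1.80 to 2.05 on the log2 scale (ESI+ minus naive) with a median of 0.70, and the median over all tested genes was 0.07. A positive fold change was found for 18 of the 25, or 72%, against 52.4% of all tested genes. Genes of low abundance had higher fold changes throughout the table. With all tested genes split by mean expression into 4 bins of 711, the median was 0.70 in the lowest bin and 0.30, -0.16 and -0.70 in the next 3. The chromatin genes lay in the lower 3 bins, with 10, 9 and 6 members and medians of 0.58, 0.90 and -0.30. SNF5 and SWC3 were in the second bin, where 8.86% of all genes were higher, and RVB1 in the third, where 2.39% were lower. By transcript length, 10 of the 25 were in the longest of 4 bins. The median of all genes there was 0.38, against -0.10 to -0.0031 in the other 3. SNF5 and SWC3 were both in the longest bin, where 13.5% of all genes were higher, against 2.53% to 5.91% in the other 3. RVB1 was in the next longest bin, where 2.53% were lower.

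**Figure D2:**
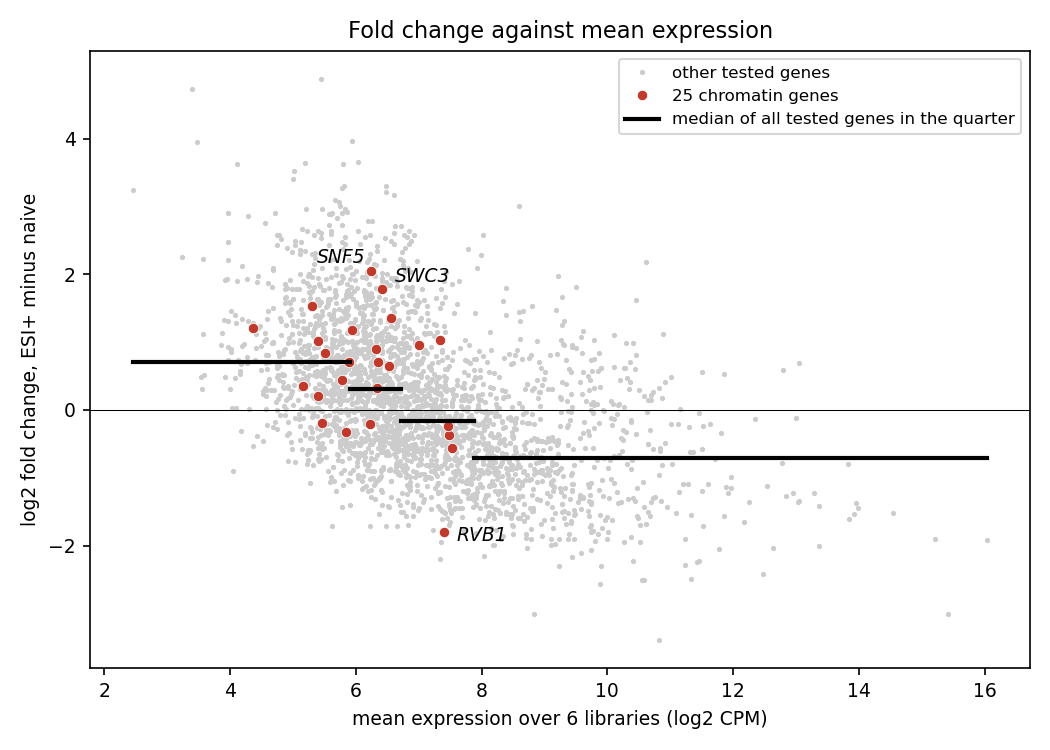
Log2 fold change (ESI+ minus naive) against mean expression over the 6 libraries (log2 CPM) for all 2844 tested genes (grey) and the 25 chromatin genes (red); black bars are the median of all tested genes in each of 4 bins of mean expression. The medians run from 0.70 in the lowest bin to -0.70 in the highest, and RVB1 lies below, and SNF5 and SWC3 above, the bar of their own bin.

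Without ESI+ replicate 2 the median of the 25 genes was 0.023, against -0.041 over all genes, and 13 of the 25 were positive. Of the 18 genes with a positive fold change in all libraries, 5 turned negative (SNF6, SWC4, VPS71, SPT3 and DOT1), while each of the 7 negative genes remained negative. No chromatin gene was called by edgeR without that library, where 0.0704% of all genes were higher and 0.0% lower. At an unadjusted p under 0.05, 0 of the 25 were higher and 1 lower, against 11.1% and 8.87% of all genes. With ESI+ replicate 1 alone against the naive libraries, a comparison added after seeing the data that assumes the lone library varies like the naive ones, the median was -0.10, near the -0.07 of all genes, and edgeR called 0 genes. At an unadjusted p under 0.05, 0 of the 25 were higher and 1 lower, against 7.83% and 4.35% of all genes.

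**Figure D3:**
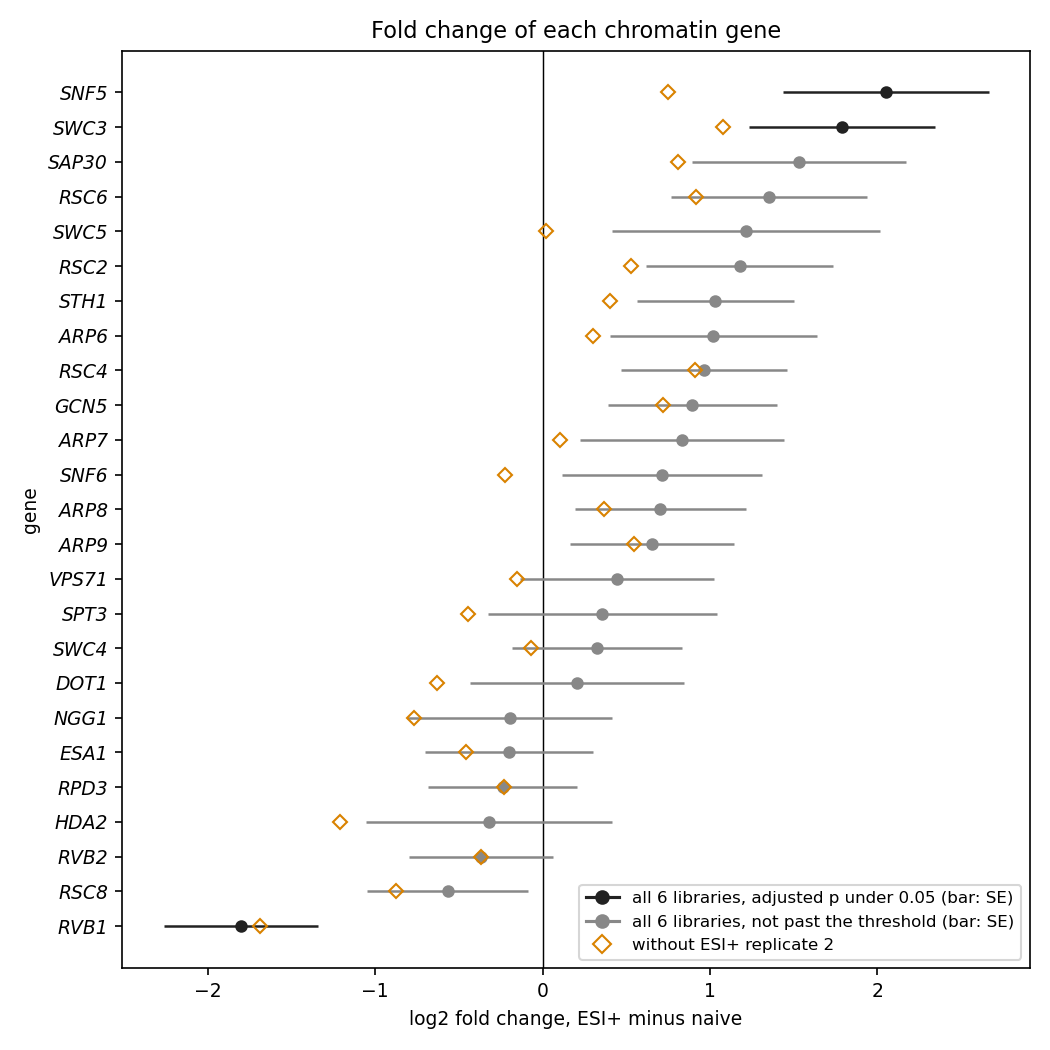
Log2 fold change (ESI+ minus naive) of each chromatin gene from all 6 libraries (circles, bars are SE; black where the adjusted p was under 0.05) and without ESI+ replicate 2 (open diamonds). Without that library SNF5 moves to 0.75 and SWC3 to 1.08, whereas RVB1 stays near its value, at -1.69.

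Of the partners RVB1 and RVB2, RVB1 was lower in ESI+ cells and RVB2 did not pass. Their proteins are AAA+ ATPases that assemble into one ring, used by both INO80 and SWR1 and also in the assembly of small nucleolar RNA particles. RVB1 (YDR190C, chromosome IV, 840604 to 841995, minus strand) had 111, 64.5 and 45.1 normalised CPM in ESI+ replicates 1, 2 and 3, against 218, 289 and 278 in naive replicates 1, 2 and 3. Every ESI+ library was lower than every naive library. It was the only one of the 25 genes of which this held, or 4%, where 14.6% of all tested genes were separated in that direction. The fall was -1.80 in log2 units (SE 0.46; adjusted p = 0.0194 with edgeR), or 73.7 ± 34.1 normalised CPM in ESI+ and 262 ± 38.3 in naive libraries (SD, n = 3 each). In a bulk culture, a lower level in every cell and a smaller share of cells with the transcript cannot be told apart.

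By the range of its fold change, RVB1 was the steadiest of the 3 called genes when single libraries were left out. The range was 0.75 to 2.49 for SNF5 and 1.08 to 2.30 for SWC3. By calls it was not steadier, as each of the 3 genes lost its call in several of these omissions. Among all 17 alternative settings of the fit, RVB1 passed in 10, against 9 for SNF5 and 8 for SWC3. Over these settings the RVB1 fold change was -2.37 to -1.12. Its fold change was -2.17 to -1.58 when any single library was left out and -1.24 with ESI+ replicate 1 alone (adjusted p = 0.357). The call was lost without ESI+ replicate 2 (-1.69, adjusted p = 0.13 with edgeR), without naive replicate 2 (-1.68, adjusted p = 0.0886) and without naive replicate 3 (-1.70, adjusted p = 0.0735). In ESI+ replicate 3 the gene had 18 counts, and the 95% exact Poisson interval of 26.7 to 71.2 normalised CPM lies below the lowest naive value. Such intervals cover counting error only. In ESI+ replicate 2 it had 311 counts per kb, 1.05 times the background of that library.

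RVB2 (YPL235W, chromosome XVI, 103232 to 104647, plus strand) differed less. It had 135, 155 and 178 normalised CPM in ESI+ replicates 1, 2 and 3, against 167, 244 and 192 in naive replicates 1, 2 and 3. The groups overlapped, and the log2 fold change was -0.37 (SE 0.43; adjusted p = 0.617 with edgeR). Per length, RVB1 was the more abundant partner in naive cells and the less abundant partner in ESI+ cells. The ratio of RVB1 to RVB2 TPM was 0.875, 0.444 and 0.260 in ESI+ replicates 1, 2 and 3, against 1.34, 1.22 and 1.497 in naive replicates 1, 2 and 3. On the log2 scale the ratio averaged -1.10 ± 0.88 in ESI+ and 0.43 ± 0.15 in naive libraries (SD, n = 3 each). The difference of -1.53 had an exact two-sided permutation p of 0.1, the smallest that 3 against 3 libraries can give, and 0.2 after adjustment over the 2 partner ratios examined. These ratios were chosen after the values were seen.

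The actin-related partners ARP7 and ARP9 served as a second pair. Their proteins form a dimer that couples the ATPase to the rest of RSC and SWI/SNF. The TPM ratio of ARP7 to ARP9 was 0.264, 0.739 and 0.413 in ESI+ replicates 1, 2 and 3, against 0.751, 0.201 and 0.526 in naive replicates 1, 2 and 3. The groups overlapped throughout, at -1.21 ± 0.74 in ESI+ and -1.22 ± 0.98 in naive libraries on the log2 scale (SD, n = 3 each; exact two-sided permutation p = 1).

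**Figure D4:**
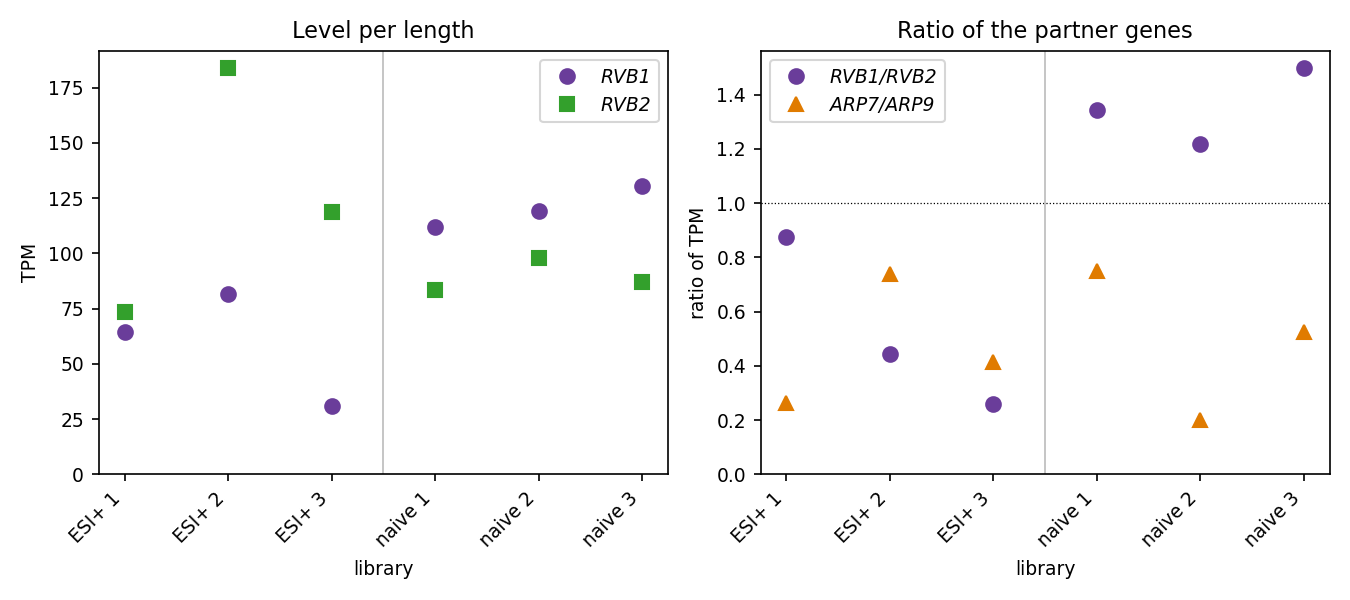
Left, TPM of RVB1 (circles) and RVB2 (squares) in each library; right, ratio of RVB1 to RVB2 (circles) and of ARP7 to ARP9 (triangles) TPM, with the dotted line at equal levels. RVB1 exceeds RVB2 in the 3 naive libraries (ratios of 1.22 to 1.497) and lies under it in the 3 ESI+ libraries (0.260 to 0.875), while the ARP7 to ARP9 ratios of the groups overlap.

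The upstream regions of the 3 called genes and of RVB2, the partner that did not pass, are shown because these genes moved in different directions. Each is the stretch from 200 to 101 bases before the start codon in the R64 reference genome, read 5′ to 3′ on the strand of the gene. Capitals mark matches, on either strand, to the RRPE element of ribosome biogenesis genes (AAAAATTT) and to the core of the site of the general regulatory factor Reb1 (TTACCC).
RVB1 (chrIV:842096-842195, minus strand): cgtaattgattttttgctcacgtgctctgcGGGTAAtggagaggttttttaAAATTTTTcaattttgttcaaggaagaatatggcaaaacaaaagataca
RVB2 (chrXVI:103032-103131, plus strand): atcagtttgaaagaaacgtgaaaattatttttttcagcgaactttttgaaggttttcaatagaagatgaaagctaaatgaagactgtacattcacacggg
SNF5 (chrII:779467-779566, plus strand): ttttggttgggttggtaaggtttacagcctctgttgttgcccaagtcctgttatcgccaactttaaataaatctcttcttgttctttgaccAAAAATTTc
SWC3 (chrI:131999-132098, plus strand): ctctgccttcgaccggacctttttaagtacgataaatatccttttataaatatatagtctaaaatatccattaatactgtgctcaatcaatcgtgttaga
RVB1 holds a match to each of the motifs, SNF5 holds the RRPE letters, and the RVB2 and SWC3 stretches hold no match. None of the stretches overlaps an annotated gene. In the full 300 bases before the start codon, the RRPE letters were found in 5 of the 25 genes (STH1, SNF5, RVB1, RPD3 and HDA2), against 15.1% of 6001 nuclear protein-coding genes. The Reb1 letters were found in 3 (VPS71, RVB1 and RPD3), against 16.5%. Another motif searched, the PAC element of ribosome biogenesis genes (GATGAG), was found in 4 (STH1, RSC8, ESA1 and DOT1), against 19.1%. The windows include part of the transcript leader, and a match is a description of the letters only.

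The other members of INO80 and SWR1 were led by SWC3. SWR1 exchanges histone H2A for H2A.Z, and Swc3 is one of its non-catalytic subunits. SWC3 (YAL011W, chromosome I, 132199 to 134076, plus strand) had 66.8, 229.5 and 95.2 normalised CPM in ESI+ replicates 1, 2 and 3, against 30.3, 62.5 and 24.6 in naive replicates 1, 2 and 3. Every ESI+ value was above every naive value; naive replicate 2 came nearest to ESI+ replicate 1. It rose by 1.79 in log2 units (SE 0.55; adjusted p = 0.0448 with edgeR), or 130.5 ± 86.9 normalised CPM in ESI+ and 39.1 ± 20.4 in naive libraries (SD, n = 3 each). The fold change was 1.08 without ESI+ replicate 2 (adjusted p = 0.264), and the call was also lost without naive replicate 1 (adjusted p = 0.121) or naive replicate 3 (adjusted p = 0.153).

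The remaining 5 subunit genes of these complexes did not pass, with edgeR adjusted p of 0.297 to 0.723. ARP6, an actin-related subunit of SWR1, had 34.5, 95.3 and 32.6 normalised CPM in ESI+ replicates 1, 2 and 3, against 24.4, 28.5 and 29.2 in naive replicates 1, 2 and 3. Its groups did not overlap, although ESI+ replicate 3 stood just above the highest naive library. ARP8, an actin-related subunit of INO80, had 53.3, 138 and 110.2 normalised CPM in ESI+ libraries and 49.6, 61.1 and 74.3 in naive libraries. SWC4, shared with the acetyltransferase NuA4, had 46.8, 127 and 92.6 in ESI+ libraries and 77.1, 59.7 and 76.1 in naive libraries. Both overlapped. SWC5, which stimulates the exchange reaction, was the least abundant of the 25 on this scale, at 7.54, 53.6 and 20.03 normalised CPM in ESI+ libraries and 15.3, 12.2 and 8.72 in naive libraries. VPS71, another SWR1 subunit gene, had 50.1, 102 and 30.05 in ESI+ and 65.8, 38.0 and 33.3 in naive libraries. For all 5, ESI+ replicate 2 was the highest library.

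In SWI/SNF, the remodeler first found through genes for mating-type switching and sucrose use, the 2 listed subunits of its own were SNF5 and SNF6. SNF5 (YBR289W, chromosome II, 779667 to 782384, plus strand) encodes a core subunit related to human SMARCB1. It had 54.4, 257 and 42.6 normalised CPM in ESI+ replicates 1, 2 and 3, against 21.5, 23.1 and 41.6 in naive replicates 1, 2 and 3. The groups did not overlap, but ESI+ replicate 3 was barely above naive replicate 3. ESI+ replicate 3 had 17 counts there, with an exact 95% Poisson interval of 24.8 to 68.2 normalised CPM. SNF5 had the largest fold change of the 25, a rise of 2.05 in log2 units (SE 0.61; adjusted p = 0.0409 with edgeR), or 118 ± 121 normalised CPM in ESI+ and 28.7 ± 11.2 in naive libraries (SD, n = 3 each). Without ESI+ replicate 2 it was 0.75 (adjusted p = 0.406), below SWC3, and the call was also lost without naive replicate 1 (adjusted p = 0.0824) or naive replicate 2 (adjusted p = 0.095).

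SNF6, which encodes a subunit found in yeast SWI/SNF, had 51.7, 139.9 and 20.03 normalised CPM in ESI+ replicates 1, 2 and 3, against 39.4, 55.7 and 39.7 in naive replicates 1, 2 and 3. Its groups overlapped (log2 fold change 0.71, SE 0.60; adjusted p = 0.463 with edgeR). The ARP9 gene had 113, 129 and 92.6 normalised CPM in ESI+ libraries and 40.3, 96.4 and 78.7 in naive libraries, and ARP7 had 31.2, 98.9 and 40.1 in ESI+ and 31.8, 20.4 and 43.6 in naive libraries. Neither passed (log2 fold changes 0.65 and 0.83, edgeR adjusted p = 0.402 and 0.392).

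RSC is the abundant and essential relative of SWI/SNF, and 5 of its own subunits were listed, none of which passed with edgeR. At an unadjusted p under 0.05, 3 of the 5 were higher and 0 lower, where 15.1% and 10.6% of all tested genes were. STH1 (YIL126W, chromosome IX), the gene for its ATPase, had 137, 365 and 145 normalised CPM in ESI+ replicates 1, 2 and 3, against 77.7, 96.4 and 144 in naive replicates 1, 2 and 3. ESI+ replicate 1 lay just under naive replicate 3, so the groups overlapped. The log2 fold change of STH1 was 1.03 (SE 0.47, unadjusted p = 0.0362, edgeR adjusted p = 0.162), and 0.40 without ESI+ replicate 2.

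RSC2, one of a pair of alternative bromodomain subunits, had 51.1, 141 and 57.6 normalised CPM in ESI+ libraries and 32.0, 32.6 and 46.9 in naive libraries. Its groups did not overlap (log2 fold change 1.18, SE 0.56; adjusted p = 0.183 with edgeR). Its coding span overlaps another annotated gene, YLR358C, so reads can be shared. The bromodomain subunit gene RSC4 had 82.4, 181 and 253 normalised CPM in ESI+ libraries and 48.8, 69.2 and 142 in naive libraries. RSC6 had 31.2, 199 and 178 in ESI+ libraries and 32.0, 38.0 and 87.4 in naive libraries. For both, ESI+ replicates 2 and 3 were above every naive library and ESI+ replicate 1 was not. RSC8, the RSC counterpart of the SWI/SNF scaffold Swi3, was the RSC gene with a negative fold change (-0.57, SE 0.48; adjusted p = 0.47 with edgeR). It had 164, 205 and 70.1 normalised CPM in ESI+ libraries and 112, 361 and 191 in naive libraries, and its fold change was 0.010 without naive replicate 2.

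The histone acetyltransferase genes showed no call. SAGA acetylates histone H3 at promoters through Gcn5, and GCN5 (YGR252W, chromosome VII) had 59.8, 124 and 128 normalised CPM in ESI+ replicates 1, 2 and 3, against 59.0, 54.3 and 53.4 in naive replicates 1, 2 and 3. The groups did not overlap, although ESI+ replicate 1 was barely above naive replicate 1. The log2 fold change of GCN5 was 0.90 (SE 0.51; adjusted p = 0.262 with edgeR) with all libraries and 0.09 with ESI+ replicate 1 alone. NGG1, which encodes the Ada3 subunit that holds Gcn5 in the complex, had 37.7, 65.9 and 12.5 normalised CPM in ESI+ libraries and 47.9, 51.6 and 40.3 in naive libraries. SPT3, which encodes a subunit that helps to deliver the TATA-binding protein, had 34.5, 71.3 and 5.01 in ESI+ libraries and 30.9, 29.9 and 30.7 in naive libraries. In ESI+ replicate 3 these values came from 5 and 2 counts.

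NuA4 acetylates histones H4 and H2A through Esa1, an essential enzyme in yeast. ESA1 (YOR244W, chromosome XV) had 58.1, 90.01 and 57.6 normalised CPM in ESI+ replicates 1, 2 and 3, against 83.3, 91.0 and 65.2 in naive replicates 1, 2 and 3. The groups overlapped, and the log2 fold change of -0.20 (SE 0.50; adjusted p = 0.827 with edgeR) was smaller than its error.

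Among the deacetylase genes, RPD3 encodes the catalytic subunit of the Rpd3 complexes and was the more abundant. RPD3 (YNL330C, chromosome XIV, 18001 to 19302, minus strand) had 115, 159.5 and 215 normalised CPM in ESI+ replicates 1, 2 and 3, against 164, 272 and 141 in naive replicates 1, 2 and 3. The groups overlapped (log2 fold change -0.24, SE 0.45; adjusted p = 0.766 with edgeR), and leaving out single libraries gave -0.48 to 0.14. It is the only one of the 25 genes within 30 kb of a chromosome end, at 18.0 kb, and it did not pass. SAP30, which encodes a subunit of the large Rpd3 complex, had 37.1, 99.5 and 32.6 normalised CPM in ESI+ libraries and 24.9, 17.7 and 17.0 in naive libraries. Its groups did not overlap, and its log2 fold change of 1.53 (SE 0.64; adjusted p = 0.125 with edgeR) was the largest among the genes that did not pass. Without ESI+ replicate 2 it was 0.81, below RSC6 and RSC4 at 0.91 each. HDA2, which encodes a subunit of the Hda1 deacetylase, had 46.3, 96.2 and 0 normalised CPM in ESI+ libraries and 49.9, 57.0 and 81.3 in naive libraries. The 0 of 316485 counts in ESI+ replicate 3 allows up to 7.51 normalised CPM (3 counts), and its fold change was -0.32 with all libraries and 0.19 without that one.

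DOT1 (YDR440W, chromosome IV) was the only listed methyltransferase gene. It had 35.0, 81.1 and 10.02 normalised CPM in ESI+ replicates 1, 2 and 3, against 36.9, 33.9 and 43.6 in naive replicates 1, 2 and 3. The ESI+ libraries fell on both sides of the naive ones, and the log2 fold change was 0.21 (SE 0.64; adjusted p = 0.861 with edgeR), or -0.63 without ESI+ replicate 2.

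In all, 6 of the 25 genes (RSC2, SNF5, SWC3, ARP6, GCN5 and SAP30) had every ESI+ value above every naive value. That is 24%, where 15.2% of all tested genes were separated in that direction.

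The counts of these genes lay close to the background of several libraries. In ESI+ replicate 2 the 25 genes had 0.746 to 3.45 times the background counts per kb, with a median of 1.94. The median was 1.82 and 6.81 in ESI+ replicates 1 and 3, and 2.00, 2.56 and 2.85 in naive replicates 1, 2 and 3. SNF5 had 1.11, 2.35 and 3.07 times the background in ESI+ replicates 1, 2 and 3, against 0.648, 0.841 and 1.25 times in naive replicates 1, 2 and 3, so its naive counts were at or near that level. The subtraction used next assumes a background in proportion to transcript length. Among the 712 lowest genes of each library, Spearman's rho between count and length was 0.76 in ESI+ replicate 2. It was 0.38 and 0.27 in ESI+ replicates 1 and 3, and 0.033, 0.12 and 0.42 in naive replicates 1, 2 and 3. Where rho was low, the background may not follow length, so the subtraction is less well founded there. With the background subtracted from every library, the median fold change of 24 tested chromatin genes was 0.95, against 0.16 over all genes. SNF5 then had 5.12, SWC3 3.23 and RVB1 -2.37 (adjusted p = 0.197, 0.222 and 0.182 with edgeR). No gene in the table was then called (edgeR, 0.0% of 2740 genes in either direction). Of the 24, 4 were higher and 3 lower at an unadjusted p under 0.05, against 12.7% and 6.72% of all genes. The part of the background in the other results was not tested.

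**Figure D5:**
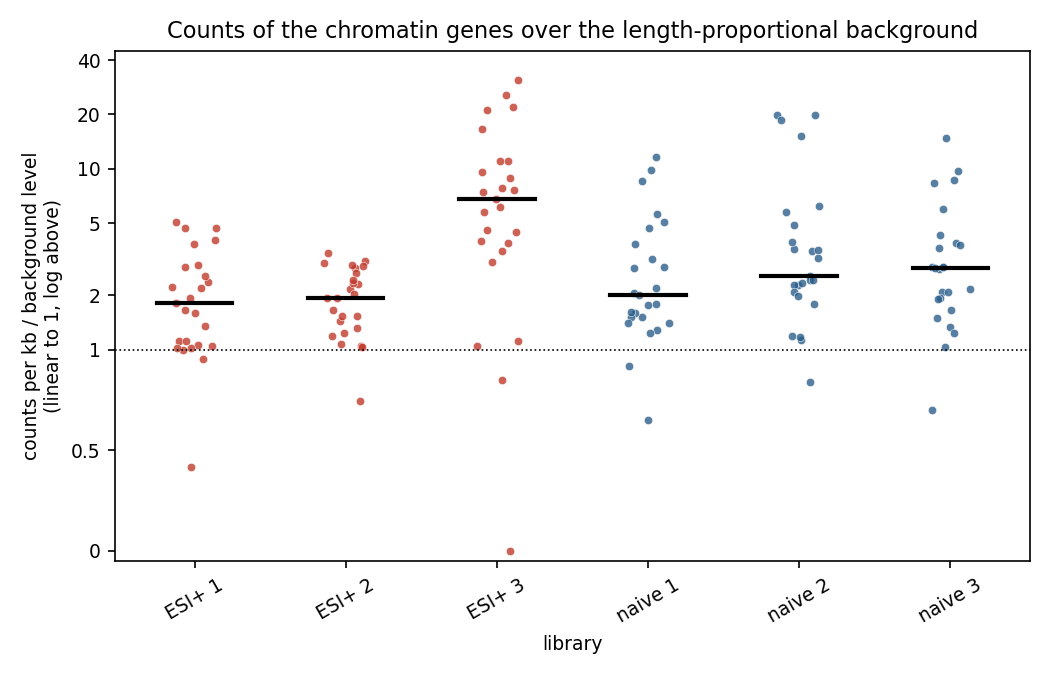
Counts per kb of each of the 25 chromatin genes divided by the background of the same library (the 5th percentile of counts per kb over all genes; dotted line at 1), for the 3 ESI+ libraries (red) and the 3 naive libraries (blue); black bars are medians and the axis is linear up to 1 and logarithmic above. Medians are 1.82, 1.94 and 6.81 in the ESI+ libraries and 2.00 to 2.85 in the naive libraries, and the points of ESI+ replicate 2 span a narrow range, 0.746 to 3.45.

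The order of the genes by level per length was set mainly by a few of them. In naive cells RVB1 was first at 120.6 ± 9.4 TPM, followed by RPD3 at 101 ± 27.2, RVB2 at 89.5 ± 7.6 and RSC8 at 80.8 ± 37.8 (SD, n = 3), and the ranges of these neighbours overlapped. ESA1 was next at 39.9 ± 6.3 TPM and did not overlap RSC8, although VPS71, just below ESA1, did. The lowest were RSC2 at 8.58 ± 2.1 and SNF5 at 6.96 ± 2.8 TPM. From ESA1 down, every gene overlapped the next one in the order. In ESI+ cells RPD3 was first by mean, at 159 ± 78.8 TPM, and RVB1 was at place 16 of 25, at 59.0 ± 25.8 TPM. In ESI+ cells the SDs were large beside the means, so the order there is not resolved. For example, SAP30 at place 2 had 152.9 ± 163 TPM.

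None of the 25 genes has a copy at 95% identity over 50% of its coding span elsewhere in the genome. A single isoform model was listed for 10 genes and several for 15, up to 8 for SNF6, and the models of a gene differed by at most 76 bases. The weighted transcript length of the 25 ran from 734 bases (SAP30) to 4283 bases (STH1), with a median of 1681 bases against 1258 bases over all tested genes. They lie on 14 chromosomes.

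Beyond these members, 108 other chromatin genes were listed by function, with earlier results of these data known. They are further subunits of the same complexes, other modifying enzymes and histone chaperones, and transcripts of 56 of them were found. Of these 56, 7 were higher (12.5%, where 6.26% of all tested genes were higher), 0 were lower and 49 did not pass with edgeR. At an unadjusted p under 0.05, 13 were higher and 2 lower, against 15.1% and 10.6% of all tested genes. DESeq2 called 7 higher and 1 lower, against 8.47% and 5.1% of all genes. Limma on log2(TPM + 1) called 2 higher and 0 lower, against 4.84% and 1.12%. The median log2 fold change of the 56 was 0.45, against 0.07 over all tested genes. Every ESI+ value was above every naive value for 12 of the 56, and below for 4. Of all tested genes, 15.2% and 14.6% were separated in these directions.

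Of the 6 other modifying enzymes and their partners in the list, 1 was higher, and of the 12 other remodelers and histone chaperones, 3 were. Those that did not pass include RLF2 of the CAF-1 complex (log2 fold change 1.33), the histone acetyltransferase gene HAT1 (1.58) and the chaperone genes NAP1 (-0.81) and CHZ1 (-1.12), with adjusted p of 0.109 to 0.238. RTT109, the gene for an acetyltransferase of free histone H3, had 40.4, 105 and 133 normalised CPM in ESI+ replicates 1, 2 and 3, against 17.6, 6.79 and 12.9 in naive replicates 1, 2 and 3. It rose by 2.82 in log2 units (SE 0.64; adjusted p = 0.00928 with edgeR). ASF1, the chaperone that presents histones to Rtt109, had 19.4, 57.4 and 130.2 in ESI+ libraries and 15.02, 14.9 and 15.04 in naive libraries (log2 fold change 2.15, SE 0.69; adjusted p = 0.0491 with edgeR), and without ESI+ replicate 3 its fold change was 1.37. CAC2, a subunit of the chromatin assembly factor CAF-1, had 35.5, 151 and 105 in ESI+ libraries and 29.2, 14.9 and 22.0 in naive libraries (2.11, SE 0.60, adjusted p = 0.0328).

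The other 4 are subunits of complexes described above or remodelers related to them. SWP82, a SWI/SNF subunit gene, had 70.5, 286 and 120.2 normalised CPM in ESI+ replicates 1, 2 and 3, against 23.5, 32.6 and 30.3 in naive replicates 1, 2 and 3 (log2 fold change 2.49, SE 0.54; adjusted p = 0.00794 with edgeR). IES6, an INO80 subunit gene, rose by 2.44 (SE 0.59, adjusted p = 0.0136), and SWD1, a subunit gene of the Set1 methyltransferase complex, by 1.86 (SE 0.55, adjusted p = 0.0386). IRC5, a gene for an Snf2-family ATPase, rose by 1.76 (SE 0.54, adjusted p = 0.0432). All 7 had every ESI+ value above every naive value. None passed without ESI+ replicate 2, where RTT109 had 2.67, SWP82, IES6, CAC2, SWD1 and IRC5 had 1.71, 1.60, 1.58, 1.16 and 0.62, and ASF1 had 2.23 (adjusted p = 0.0725 to 0.412 with edgeR over the 7). Leaving out any single naive library also ended the calls of SWD1, IRC5, ASF1 and CAC2, while SWP82, RTT109 and IES6 passed without any 1 of the naive libraries. HTL1, an RSC subunit gene, was the lower gene called by DESeq2, with 158, 74.8 and 168 normalised CPM in ESI+ libraries and 413, 410.0 and 223 in naive libraries (edgeR log2 fold change -1.40, SE 0.47, adjusted p = 0.0628).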

How the data were processed

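Polyadenylated RNA was sequenced in paired ends in 6 libraries. The authors used kallisto 0.43.1 and build R64, per the submitters' processing notes. The deposited tables hold estimated counts and TPM values for 17906 isoforms, per the file headers. Kallisto's options, strandedness and the source of the isoform models are not given in the sources used here.

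Isoforms were summed per gene and counts rounded. filterByExpr at a minimum count of 10 kept 2844 genes, which were scaled by TMM. ESI+ was compared with naive by edgeR 4.0.16 (R 4.3.3), robust quasi-likelihood test; p-values were adjusted over all 2844 genes (Benjamini-Hochberg, threshold 0.05). The SE is the fold change divided by the square root of F. The script was tested on simulated data. Alternatives used DESeq2 1.42.0, limma 3.58.1 on log2(TPM + 1) and log2(TPM + 0.1) with TPM of at least 1 in 3 libraries, other scalings and filters, and omission of libraries. The pseudocount shrinks fold changes of genes with TPM near it. Medians on log2 TPM were still higher than with edgeR. At pseudocounts of 0.1 and 1 they were 1.40 and 1.35 for the 25 genes, against 0.70 with edgeR. Over all genes they were 0.65 and 0.64, against 0.07.

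Members and lists were chosen with earlier results of these data known. Every member is named, with tests for called and catalytic genes, and every wider gene past the threshold. The p-values measure the spread between cultures as labelled. Gene names and coordinates (1-based coding spans) come from RefSeq's R64 table.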

Additional observations from a re-analysis of the deposited data

How the results depend on the processing

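Against 2 higher and 1 lower chromatin gene, 7 higher and 0 lower wider genes, and 178 higher and 47 lower of all genes, other scalings of the counts, effective-length offsets, no filter and removal of the 20 most abundant genes left every one of these counts within 1.5 times. Leaving out single libraries gave 0 to 3 higher and 0 to 1 lower chromatin genes, a median of 0.023 to 0.96, 0 to 10 higher and 0 to 1 lower wider genes, and 2 to 331 higher and 0 to 87 lower of all genes, with the lowest values without ESI+ replicate 2. With the replicate block, 0 chromatin genes were higher and 1 lower, 3 wider genes were higher, and 67 and 25 of all genes were called; SNF5 had 1.59 (adjusted p = 0.135) and SWC3 1.65 (adjusted p = 0.075), and the RVB1 call held. The libraries share only a number, and same-numbered ones did not deviate together (r of -0.064, -0.21 and -0.044). DESeq2 called 145 of all genes lower and 1 wider gene lower, and edgeR without robust moderation, added later, 28 lower and 1 chromatin gene higher, SNF5, while SWC3 did not pass (adjusted p = 0.051). Limma with a pseudocount of 0.1 called 0 and 0 chromatin genes, 1 wider gene higher, and 96 and 20 of all genes; with 1 it called 0 and 0, and 2 wider genes. On that scale the chromatin median was 1.40 and 1.35, and that of all genes 0.65 and 0.64. Background subtraction and ESI+ replicate 1 alone, which was added later, called 0 genes in either direction in each list, and in the latter the chromatin median turned to -0.10. The causes were not tested.

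Genes that did not pass turned sign as follows. With ESI+ replicate 1 alone, RSC4 had -0.10, RSC6 -0.79, ARP7 -0.10, ARP8 -0.23, SWC4 -0.63, SWC5 -0.69 and DOT1 -0.15. With background subtraction, RPD3 had 0.0036 and DOT1 -1.65. With limma at pseudocounts of 0.1 and 1, RSC8 had 0.25 and 0.25, RVB2 0.39 and 0.39, NGG1 0.23 and 0.25, ESA1 0.53 and 0.53, and RPD3 0.55 and 0.54. Each of these limma values still lay below the median of all genes on that scale, 0.65 and 0.64. With the replicate block, SPT3 had -0.11 and DOT1 -0.17. Leaving out single libraries gave -0.88 to 0.010 for RSC8, -0.23 to 1.12 for SNF6, -0.072 to 0.69 for SWC4, -0.15 to 0.85 for VPS71, -0.77 to 0.17 for NGG1, -0.45 to 0.80 for SPT3, -0.48 to 0.14 for RPD3, -1.21 to 0.19 for HDA2 and -0.63 to 0.61 for DOT1. SWC5 and ASF1 had no value under background subtraction. Depth limits ESI+ replicate 3, where the median chromatin gene had 23 counts.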

Other observations

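The naive libraries also differed among themselves in a way that follows transcript length. Across the 25 genes, Spearman's rho between length and the level relative to the naive mean was -0.61 in naive replicate 1 and 0.63 in naive replicate 3, against 0.04 to 0.17 in the ESI+ libraries and -0.20 in naive replicate 2. The genes share these libraries, and the naive mean holds the naive libraries themselves. STH1, the longest of the 25, had 77.7 normalised CPM in naive replicate 1 and 144 in naive replicate 3, while VPS71, among the shortest, had 65.8 and 33.3.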
